A study of Homo sapiens with 5 samples.

Results

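The genes described here are 9 genes of the extracellular matrix and of the mesenchymal cell state: COL1A1, LAMA4, AGRN, MMP14, ADAMTS1, FAP, TAGLN, CALD1 and VIM. They were taken by symbol from the 12474 genes of the deposited matrix, and 9 of 9 were found there. The set was put together with results of these data in view and counts as chosen by its levels in treated and untreated cells, so the differences between treated and untreated cells are given as a description, with no p-value. The cells were MDA-MB-468, a line of triple-negative breast cancer in which lineage barcodes had been introduced. Single-cell RNA sequencing with a 3′ Chromium kit gave 5 libraries of 4101 cells. Replicates 1 and 2 of day 0 (D0) were untreated and held 478 and 1063 cells. The other 3 libraries received afatinib at 250 nM for 3, 6 or 9 days (D3, D6, D9), a drug that binds EGFR and ERBB2 covalently and blocks their kinase activity, and held 479, 942 and 1139 cells. Each treated day was 1 library, and nothing states that the D0 replicates were separate cultures, so the spread between them may be technical. Cells were frozen and thawed before capture, according to the study's methods.

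The extracellular matrix is the protein mesh outside cells, built of collagen fibres and, beneath epithelia, of a thin basement membrane of laminins, network collagens and proteoglycans such as agrin. Cells remodel it with membrane-bound and secreted proteases, and grip it through integrins that connect to the actin cytoskeleton. Carcinoma cells can take on part of the programme of connective tissue cells, called epithelial to mesenchymal transition, in which vimentin filaments, contractile actin-binding proteins and matrix proteases appear beside or in place of epithelial genes. Basal-like breast cancer lines can hold vimentin and keratins in the same culture.

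Total counts per library ran from 14517579 to 28148379, and the mitochondrial share of counts was 7.25% and 7.80% in the D0 libraries, 17.2% (D3), 16% (D6) and 8.82% (D9) after treatment. Levels are given as counts of unique molecular identifiers (UMIs) scaled to 1e6 counts of a library (CPM), with exact Poisson 95% intervals where an interval is printed. Shares of cells with a UMI were read after every cell had been thinned at random to 5000 UMIs, with exact binomial 95% intervals. All intervals cover counting error only. The culture was a single cell line, so no second cell type was at hand to measure the share that free RNA gives. The 8 epithelial markers looked up were all in the matrix and summed to 7314 and 7205 CPM at D0 and to between 4597 (D6) and 6310 CPM (D9) after treatment. Of 12 fibroblast markers 3 were in the matrix, mostly FBLN1, and summed to 78.9 and 79.9 CPM at D0 and 52.1, 33.8 and 25.2 CPM on the treated days in order, lower under treatment as FAP was. C1R went the other way, from 1.18 and 1.56 CPM to between 4.23 and 6.13 CPM. COL1A2, COL3A1, DCN, LUM and PDGFRA were not among the genes of the matrix. Of the pericyte and smooth muscle markers 3 of 8 were there, mostly NOTCH3, and summed to 62.4 and 62.8 CPM at D0 and to between 125 and 151 CPM in treated libraries. Endothelial markers (3 of 8) summed to between 5.31 and 9.56 CPM and leukocyte markers (0 of 8) were not there. The part of other cell types in the values below was not tested.

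Treated libraries were compared with untreated ones by the quasi-likelihood test of edgeR over 12145 genes, and a gene was called where its Benjamini-Hochberg adjusted p was under 0.05. The 3 treated days served as replicates of treatment. The SE values, adjusted p-values and calls thus rest in part on differences between days. All 9 genes were in the fit. As a description of where they fell in it, 2 were called higher (MMP14 and TAGLN) and 3 lower (LAMA4, ADAMTS1 and FAP), against 13.1% of all genes tested called higher and 10.1% called lower. COL1A1, AGRN, CALD1 and VIM were not called. In CPM the treated and untreated libraries did not overlap for 9 of 9 genes, with all treated libraries higher for 5 and lower for 4. For all genes tested this held for 59.4%, with the treated libraries higher for 41.3% and lower for 18.0%. CPM are scaled to library totals alone, while the fit also uses normalization factors (TMM). These were 0.941 and 0.946 at D0 and 1.07, 1.01 and 1.04 at D3, D6 and D9. Scaled by them, COL1A1 at D9 would not lie above D0 replicate 2. Over all genes 1590 were called higher and 1229 lower, and without mitochondrial and ribosomal protein genes 1280 and 1491. Since the 9 genes were chosen with these results known, those counts test nothing about them and nothing is read from them, and each of the 5 calls was also missing in at least 1 fit that left out a D0 library. For single genes the fold changes with their errors are given below, not the calls. The median log2 fold change of the 9 genes was 0.33, and that of all genes tested was 0.05.

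**Figure D1:**
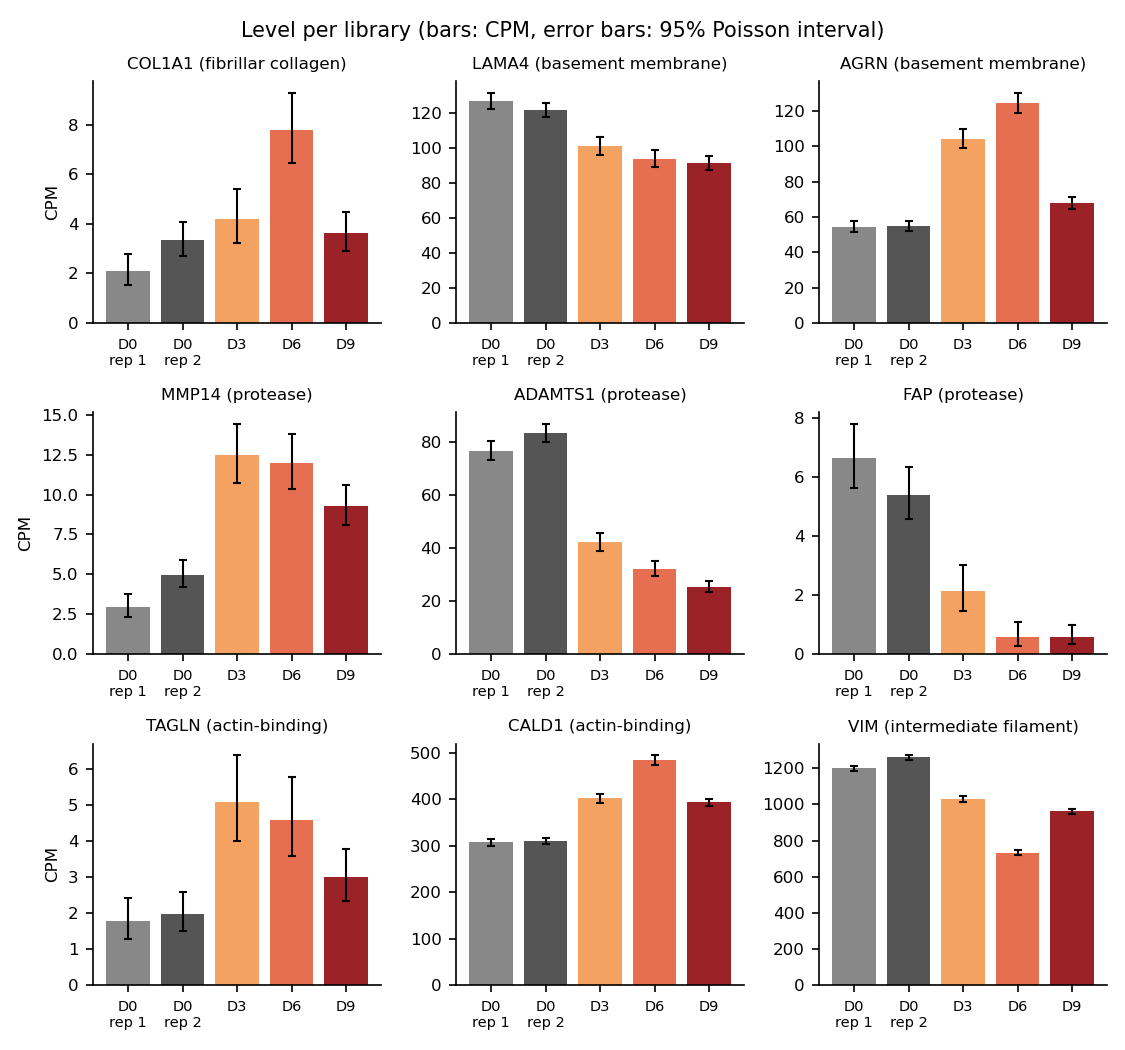
Level of each gene (CPM, vertical axes from 0, scaled per gene) in the 5 libraries, with exact Poisson 95% intervals as error bars. Over all cells, COL1A1, AGRN and CALD1 were highest at D6 and lower again at D9, VIM was lowest at D6, and ADAMTS1 and LAMA4 were lowest at D9.

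COL1A1 encodes the alpha 1 chain of type I collagen, the main fibre collagen of connective tissue, and lies at chromosome 17, 50184101 to 50201632, on the minus strand (GRCh38, as are all positions here). Untreated replicate 1 had 2.09 CPM of COL1A1 and replicate 2 had 3.34 CPM. Under afatinib, D3 had 4.20 CPM, D6 7.78 CPM and D9 3.64 CPM. D6 stood above the other libraries, while the intervals of D0 replicate 2 (2.70 to 4.09 CPM), D3 (3.21 to 5.40 CPM) and D9 (2.91 to 4.49 CPM) overlapped. Treated over untreated libraries, the log2 fold change was 0.79 ± 0.39 (SE, 3 against 2 libraries). It was 0.34 without D6, 1.00 without D9 and 1.17 without D0 replicate 2. Cells under 10% mitochondrial counts gave a fold of 0.37, and in them D6 did not stand apart: the level was 2.05 and 3.13 CPM before treatment, 3.79 CPM in D3, 3.65 CPM in D6 and 3.67 CPM in D9. Only 85 D3 and 188 D6 cells were under that limit, and no interval was computed for these levels. Thinned cells with a UMI made up between 1.05% and 4.56% of a library. COL1A2, which encodes the partner chain of type I collagen, was not among the genes of the matrix.

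LAMA4 encodes the alpha 4 chain of laminins, found in the basement membranes of vessels, muscle and fat, and lies at chromosome 6, 112107931 to 112254939, on the minus strand. Its level was 126 CPM in untreated replicate 1 and 121 CPM in replicate 2. D3 had 101 CPM, D6 93.8 CPM and D9 91.0 CPM. The treated libraries were all lower than both untreated ones, with a log2 fold change of -0.52 ± 0.14 (SE). The fold ran from -0.55 to -0.48 with 1 library left out and was -0.66 after thinning. After thinning, 47.5% and 42.1% of untreated cells held a LAMA4 UMI, and 37.2%, 33.8% and 31.1% of D3, D6 and D9 cells. An unnamed gene on the opposite strand (ENSG00000237234) overlaps LAMA4, and whether counting used the strand is not given in the sources used here.

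AGRN encodes agrin, a heparan sulfate proteoglycan of basement membranes best known for clustering acetylcholine receptors at the neuromuscular junction, and lies at chromosome 1, 1020120 to 1056118, on the plus strand. Untreated replicate 1 had 54.5 CPM of AGRN and replicate 2 had 54.7 CPM. After treatment, D3 had 104 CPM, D6 124 CPM and D9 67.8 CPM. The libraries of D3 and D6, which also had the largest mitochondrial shares, stood apart from the other 3. The log2 fold change was 0.72 ± 0.25 (SE). It was 0.12 without D3 and D6, 0.31 in cells under 10% mitochondrial counts, and 0.93 without D9. After thinning, 27.8% and 25.5% of untreated cells held an AGRN UMI, against 44.9%, 47.9% and 28.4% at D3, D6 and D9. In cells under 10% mitochondrial counts the same shares were 23.2% and 22.2% for untreated cells and 30.6% of 85 D3 cells, 33.5% of 188 D6 cells and 25.4% of D9 cells. The mean share of treated minus that of untreated libraries was 13.7 percentage points after thinning and -0.957 points without it.

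MMP14 encodes the membrane-type matrix metalloproteinase that cleaves fibrillar collagen at the cell surface and activates pro-MMP2, and lies at chromosome 14, 22836560 to 22849041, on the plus strand. Its level was 2.96 CPM in untreated replicate 1 and 4.97 CPM in replicate 2. Afatinib-treated D3 had 12.5 CPM, D6 11.98 CPM and D9 9.31 CPM. Every treated library was above both untreated ones, and the lower bound at D9 (8.12 CPM) lay above the upper bound of D0 replicate 2 (5.87 CPM). Its log2 fold change was 1.35 ± 0.26 (SE) and ran from 1.04 without D0 replicate 1 to 1.78 without D0 replicate 2. It was 0.95 in cells under 10% mitochondrial counts and 1.06 after thinning. Thinned cells with a UMI made up 1.88% and 3.20% of the untreated libraries and 4.80%, 6.05% and 5.18% of D3, D6 and D9, and these intervals overlapped between D0 replicate 2 (2.23% to 4.44%) and D3 (3.07% to 7.12%).

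ADAMTS1 encodes a secreted protease that cleaves the proteoglycans aggrecan and versican, and lies at chromosome 21, 26835755 to 26845409, on the minus strand. Untreated replicate 1 had 76.7 CPM of ADAMTS1 and replicate 2 had 83.3 CPM. Treated cells of D3 had 42.1 CPM, D6 32 CPM and D9 25.4 CPM. The treated libraries lay at 0.526, 0.400 and 0.317 of the untreated mean, lower at each later day. On the log2 scale the fold change was -1.42 ± 0.20 (SE) and ran from -1.60 to -1.26 with 1 library left out. In cells under 10% mitochondrial counts it was -1.80. After thinning, 22% and 23.5% of untreated cells held an ADAMTS1 UMI, and 14.2%, 12.7% and 11.0% of D3, D6 and D9 cells.

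ADAMTS1 UMIs were gathered in few cells. The 10% of cells with the most ADAMTS1 held 73.9% and 68.5% of its thinned UMIs before treatment, 83.3% in D3, 84.2% in D6 and 93.3% in D9. Since 14.2%, 12.7% and 11.0% of D3, D6 and D9 cells held any ADAMTS1 after thinning, the treated values depend in part on that share. The last value is near its ceiling. Cells with 3 or more thinned UMIs made up 5.23% and 5.17% of untreated cells, 2.92% of D3, 0.849% of D6 and 0.615% of D9 cells. The Fano factor, the variance over cells divided by the mean, was 3.32 and 2.58 before treatment and 2.40 (D3), 1.66 (D6) and 1.66 (D9) under it. This ratio also follows the mean. Mean thinned UMIs per cell were 0.456 and 0.460 at D0 and 0.251, 0.175 and 0.145 at D3, D6 and D9.

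FAP encodes fibroblast activation protein, a membrane serine protease that cleaves after proline and marks activated fibroblasts in tumours, and lies at chromosome 2, 162170684 to 162245151, on the minus strand. Its level was 6.66 CPM in untreated replicate 1 and 5.40 CPM in replicate 2 (153 and 152 UMIs). In treated libraries, D3 had 2.14 CPM, D6 0.574 CPM and D9 0.592 CPM (31, 9 and 14 UMIs). Every treated library was below both untreated ones, at 0.354, 0.0951 and 0.0982 of their mean. The fitted log2 fold change was -2.66 ± 0.48 (SE) and ran from -3.47 without D3 to -2.32 without D9. It was -2.49 without D0 replicate 1, -2.80 without D0 replicate 2 and -2.62 after thinning. Cells under 10% mitochondrial counts gave a fold of -2.85. After thinning, 2.09% and 2.07% of untreated cells, 0.835% of D3 cells and 0.263% of D9 cells held a FAP UMI. At D6 it was 0 of 942 thinned cells, which allows a share of up to 0.318% (3 cells).

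FAP has a close relative next to it on the chromosome. DPP4, the related dipeptidyl peptidase, lies 96290 bp away at chromosome 2, 161992245 to 162074394, on the same strand. DPP4 had 6.31 and 6.25 CPM at D0, and D3 had 1.93 CPM, D6 0.701 and D9 0.550 CPM. Its log2 fold change was -2.78 with SE 0.43 (edgeR adjusted p = 0.00596). An unnamed long non-coding RNA between FAP and DPP4 (ENSG00000233397, 162092232 to 162095032, on the plus strand) had 3.70 and 3.02 CPM at D0, 0.0637 CPM at D6, 0.0846 CPM at D9 and 0 at D3, which allows up to 0.207 CPM (3 counts). On the other side of FAP, IFIH1 and GCA were not called, with log2 fold changes of 0.05 ± 0.13 and 0.05 ± 0.20 (edgeR adjusted p = 0.827 and 0.885). DPP4 was in the lists looked up here, and the other neighbours were chosen after their values were seen.

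FAP and DPP4 were also counted in the same untreated cells more often than the shares of each gene give, and IFIH1 and COL1A1 also gave some excess in both untreated libraries. For every pair the cells of a library were ranked by total UMIs into 4 groups, and the product of both shares within each group was summed. In untreated D0 replicate 1, 44 cells held UMIs of both FAP and DPP4, where that product gave 25.2. In D0 replicate 2 it was 30 cells, where the product gave 17.9. Without grouping by total UMIs, DPP4 was counted in 42.3% and 26.8% of the untreated cells with FAP and in 12.3% and 11.7% of those without. The same shares were 70.2% and 40.2% against 41.2% and 31.55% for IFIH1, and 81.7% and 52.7% against 70.6% and 45.6% for GCA. For COL5A2 they were 15.4% and 3.57% against 7.49% and 6.20%. For the RNA between FAP and DPP4 the cells with both that RNA and FAP numbered 26 and 16, where the product gave 14.7 and 8.45. For IFIH1 they were 73 and 45 against 56.5 and 39.8, and for GCA 85 and 59 against 83.8 and 56.8. Of 3 genes elsewhere in the genome, MMP14 gave 14 and 15 against 14.3 and 14.3, COL1A1 13 and 13 against 10.2 and 9.67, and COL5A2 16 and 4 against 10.9 and 7.10. At D3, D6 and D9 2, 0 and 0 cells held both FAP and DPP4, too few to compare. These are counts of cells in 2 libraries of 1 cell line, with no test.

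TAGLN encodes transgelin, an actin-binding protein of smooth muscle and fibroblasts, and lies at chromosome 11, 117199370 to 117207464, on the plus strand. Untreated replicate 1 had 1.78 CPM of TAGLN and replicate 2 had 1.99 CPM. With afatinib, D3 had 5.10 CPM, D6 4.59 CPM and D9 3.00 CPM. All treated libraries were higher, but the lower bound at D9 (2.35 CPM) lay below the upper bound of D0 replicate 2 (2.58 CPM). Its log2 fold change was 1.00 ± 0.30 (SE). It ran from 0.87 without D3 to 1.21 without D9, and was 0.78 in cells under 10% mitochondrial counts and 1.08 after thinning. Without both D3 and D6 the fold was 0.47. PCSK7 overlaps TAGLN on the opposite strand and was itself called higher, at 51.8 CPM in the untreated mean and 87.8 CPM in the treated mean. Whether the overlap adds anything to the TAGLN counts was not tested.

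CALD1 encodes caldesmon, which binds actin and tropomyosin and restrains myosin in smooth muscle and stress fibres, and lies at chromosome 7, 134744252 to 134970729, on the plus strand. Its level was 307 CPM in untreated replicate 1 and 310 CPM in replicate 2. The D3 library had 401 CPM, D6 484 CPM and D9 393 CPM. Every treated library was above both untreated ones, D6 the highest. The log2 fold change was 0.33 ± 0.19 (SE), and 0.19 without D6. It was 0.38 without D9 and 0.15 without both D3 and D6. Cells under 10% mitochondrial counts gave a fold of 0.30. After thinning, 70.9% and 71.5% of untreated cells held a CALD1 UMI, against 81.4%, 86.3% and 76.8% at D3, D6 and D9. Cells with 3 or more thinned UMIs made up 20.7% and 23.1% of untreated cells and 37.0%, 45.4% and 31.0% at D3, D6 and D9. Unthinned shares lay between 95.4% and 97.9% in all libraries, near their ceiling, and showed none of that difference.

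Promoter windows from RefSeq (GRCh38.p14), 250 bases before to 50 after a start, were at hand for MMP14, CALD1, LAMA4 and VIM, with 4 alternative starts for CALD1. They were searched on both strands for the TEAD motif (GGAATG), the AP-1 motif (TGANTCA) and the CArG box of serum response factor, which 14%, 7.71% and 1.29% of 35116 promoter windows hold. CALD1 was the only one of the 4 genes with a match, which is why its matches are shown, and nothing about its regulation is read from them. The 3 matches follow with 10 bases on either side, plus strand, the motif in capitals, and the windows of MMP14, LAMA4 and VIM held none of the 3 motifs.
CALD1, start 1, TEAD motif 194 bases before the start, chr7:134779430-134779455: gcatgcctagGGAATGacaggcatct
CALD1, start 4, TEAD motif on the minus strand 42 bases before the start, chr7:134745415-134745440: gttaagtctgCATTCCgctactggat
CALD1, start 3, AP-1 motif 126 bases before the start, chr7:134711363-134711389: attttttaggTGATTCAcatttaaatt
A match describes these letters and is no measure of binding. Start 3 lies before the GENCODE span of CALD1 given above, and the 3′ counts do not say which start a transcript came from.

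VIM encodes vimentin, the intermediate filament of mesenchymal cells, and lies at chromosome 10, 17228241 to 17237593, on the plus strand, with VIM-AS1 on the other. Untreated replicate 1 had 1199 CPM of VIM and replicate 2 had 1261 CPM. The treated D3 had 1032 CPM, D6 733 CPM and D9 962 CPM. All treated libraries were lower, D6 the lowest, and the log2 fold change was -0.58 ± 0.21 (SE). It was -0.63 without D9, -0.55 without both D3 and D6 and -0.62 by DESeq2. Among cells under 10% mitochondrial counts it was -0.48. VIM-AS1 lay between 6.18 and 10.1 CPM in the 5 libraries.

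In cells thinned to 1 depth, untreated and treated libraries differed most where cells held many VIM UMIs. After thinning, 89.1% and 87.5% of untreated cells and 89.1%, 89.0% and 93.0% of D3, D6 and D9 cells held a VIM UMI, an order that is not that of the levels and is not read. The median cell held 4 VIM UMIs of 5000 in both untreated libraries, 3 in D3 and D6, and 4 in D9. The 90th percentile was 14 and 16 UMIs in untreated cells, 10 in D3, 7 in D6 and 9 in D9. The Fano factor of VIM was 6.01 and 7.11 before treatment and 4.82 (D3), 2.76 (D6) and 3.89 (D9) under it, and this ratio also follows the mean.

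**Figure D2:**
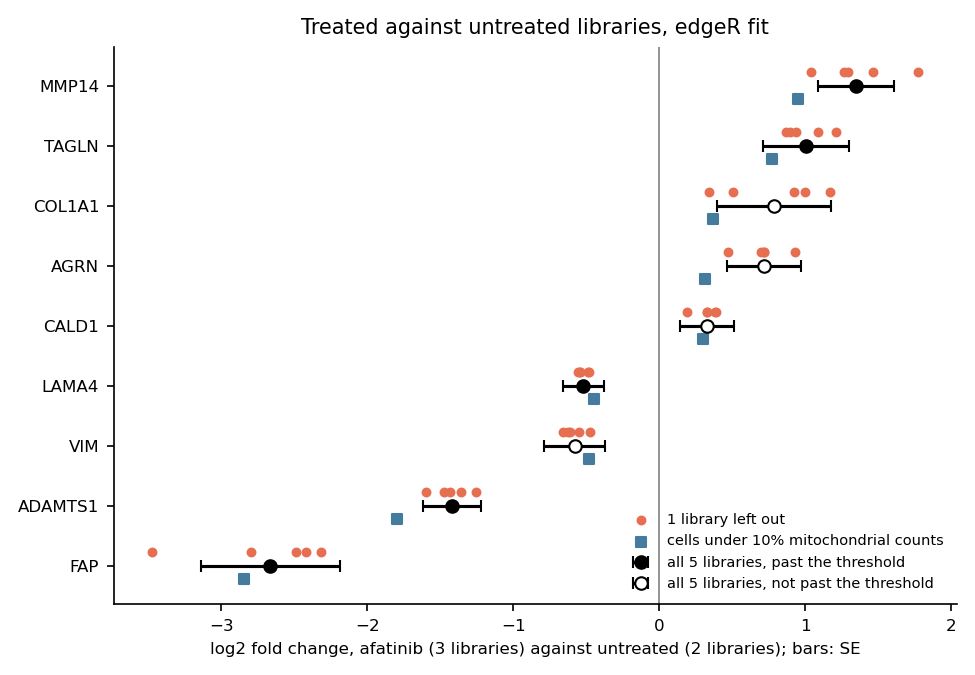
Log2 fold change of treated (3) over untreated (2) libraries for each gene, with SE bars. Filled points passed the threshold of the fit and open ones did not, given as a description. Small circles leave out 1 library each, squares use only cells under 10% mitochondrial counts. The fold changes kept their sign, and ADAMTS1 and FAP lay farther from 0 in the low mitochondrial cells, at -1.80 and -2.85.

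**Figure D3:**
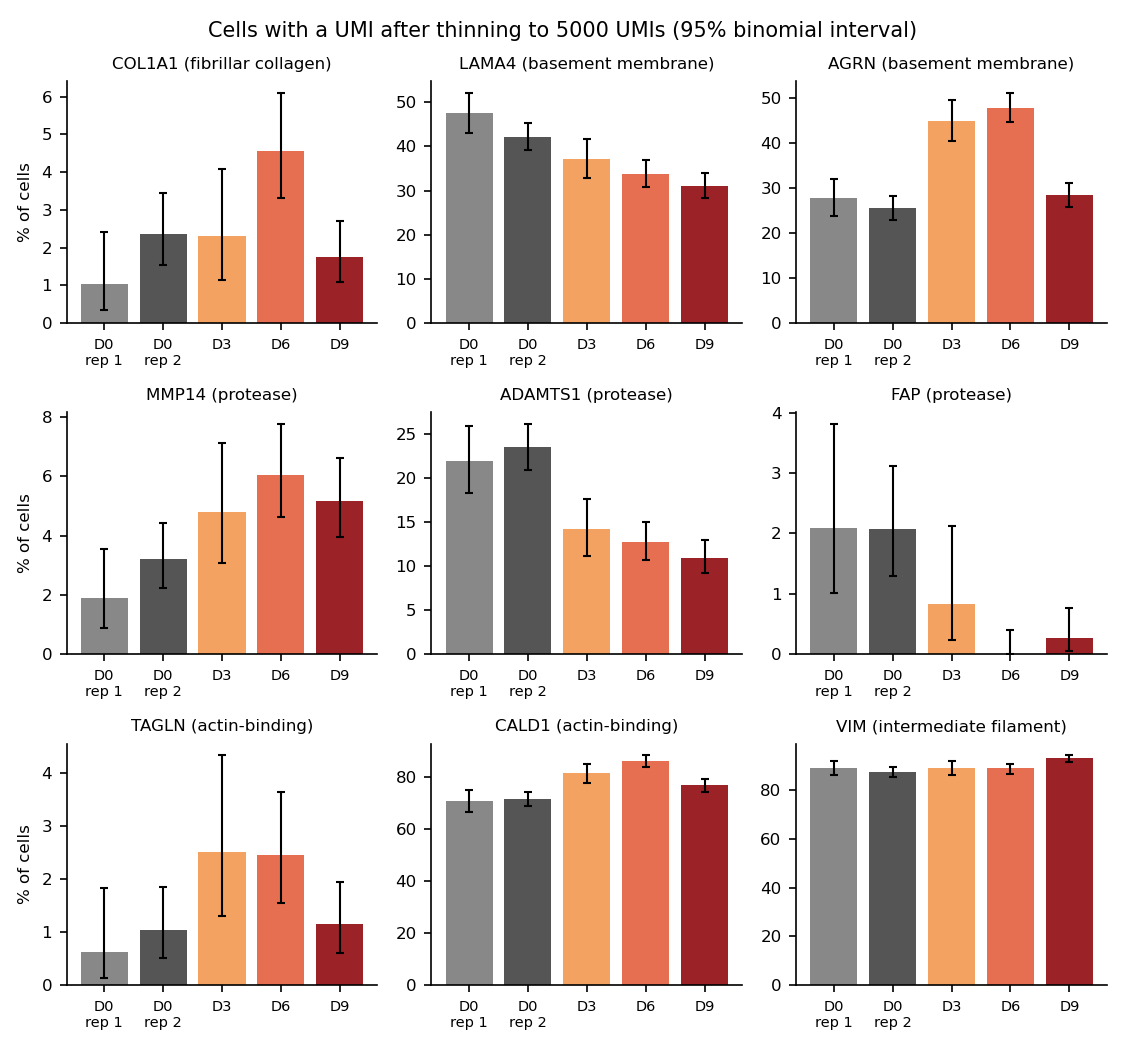
Share of cells (%) with at least 1 UMI of each gene after thinning to 5000 UMIs, per library, with exact binomial 95% intervals. The shares of LAMA4, ADAMTS1 and FAP were lower in all treated libraries, and that of AGRN was back near the untreated shares at D9 (28.4%).

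**Figure D4:**
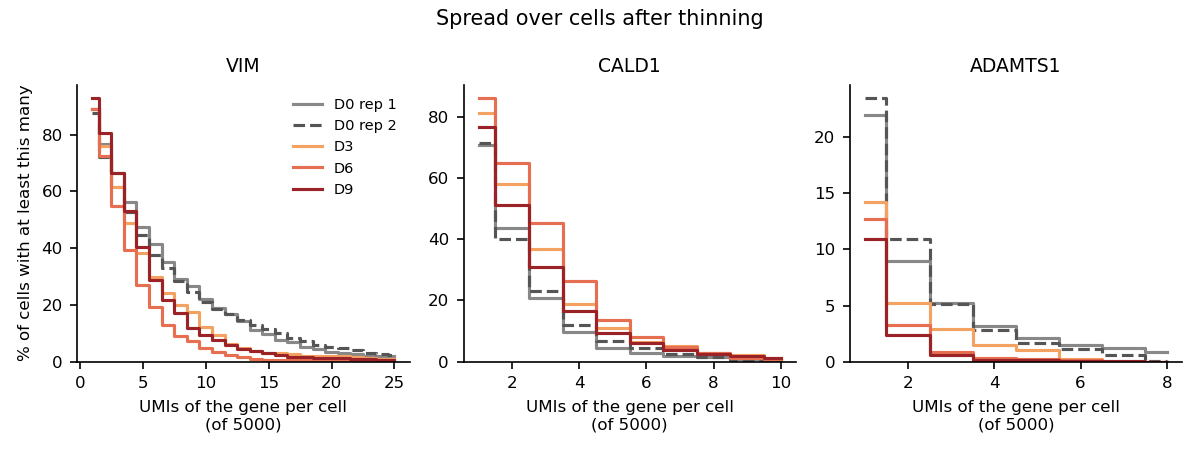
Share of cells (vertical, %) with at least a given number of UMIs of VIM, CALD1 or ADAMTS1 (horizontal) among 5000 per cell, 1 line per library. Untreated lines (grey) lie highest in the tail of VIM and ADAMTS1, and treated lines lie highest for CALD1, where 45.4% of D6 cells held 3 or more.

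With 3 treated against 2 untreated libraries an exact permutation test of a share cannot give a p below 0.1, so no share was tested. The 9 genes thus fell into different patterns over the treated days. ADAMTS1 and LAMA4 were lower at each later day, though the counting intervals of LAMA4 overlapped between neighbouring treated days, and in cells under 10% mitochondrial counts ADAMTS1 had 23.7 CPM in D6 and 24.6 CPM in D9. FAP was near its lowest level from D6 on. MMP14 and TAGLN had similar levels at D3 and D6 and lower ones at D9. For both genes the interval of D6 overlapped those of D3 and of D9. In cells under 10% mitochondrial counts MMP14 had 8.54 CPM in D3, 6.69 CPM in D6 and 9.12 CPM in D9. Those were 85 cells in D3 and 188 in D6, with no interval computed, so their order is not read. COL1A1, AGRN, CALD1 and VIM departed most at D6 and lay nearer the untreated libraries at D9 than at D6, for COL1A1 not so in cells under 10% mitochondrial counts. Each day was 1 library, so the differences between days have no replicate check. The deposited counts had been adjusted by the authors for the D0 captures, a step meant to remove differences between them. The SE values, adjusted p-values and calls given here rest in part on the spread left between the D0 libraries, and in part on the differences between treated days. In D0 replicate 1, D3, D6 and D9, 7 of the 9 genes had no cell at exactly 2 UMIs, and in D0 replicate 2 it was 1 of 9. The part of that adjustment in the folds, their errors and the calls was not tested. Nor was its part in values read per cell, which are shares of cells, Fano factors, correlations over cells and cells with both of 2 genes.

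The genes were then compared over the cells of each library. LAMA4, AGRN, ADAMTS1, CALD1 and VIM had a UMI in at least 10% of thinned cells of every library and could be compared, and for COL1A1, MMP14, FAP and TAGLN the counts were too sparse. Pearson's r was computed within each library on log2(1 + thinned UMIs), over 478 to 1139 cells that share library, depth and base composition, and is given with no p. The 10 pairs had mean r over the 5 libraries between -0.08 and 0.15. ADAMTS1 and CALD1 gave the highest, 0.15, with 0.22 and 0.10 in the untreated replicates, 0.20 in D3, 0.10 in D6 and 0.14 in D9. CALD1 was counted in 81.9% and 75.2% of untreated cells with ADAMTS1 and in 67.8% and 70.4% of those without. The same shares were 95.6% against 79.1% at D3, 90% against 85.8% at D6 and 86.4% against 75.6% at D9. Their levels went opposite ways under treatment, CALD1 higher and ADAMTS1 lower. Mean r was 0.09 for AGRN with CALD1 and 0.07 for LAMA4 with ADAMTS1, and -0.08 for ADAMTS1 with VIM and -0.07 for LAMA4 with VIM. The sign of r was not the same in every library under every alternative. With another random seed AGRN with CALD1 gave -0.02 in D0 replicate 2, and LAMA4 with ADAMTS1 gave -0.004 in D0 replicate 1 and was near 0 at D3 in the first thinning. In cells under 10% mitochondrial counts ADAMTS1 with CALD1 gave -0.01 in D6, and LAMA4 with VIM gave 0.04 in D3. With all thinned cells of a library, the highest r of VIM with any of the other 4 genes was 0.09, with CALD1 at D6. The values over all thinned cells are small. In the 85 D3 cells under 10% mitochondrial counts, AGRN with VIM gave -0.33 and LAMA4 with CALD1 0.26. In the 188 such D6 cells, LAMA4 with VIM gave -0.21 and CALD1 with VIM 0.15.

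**Figure D5:**
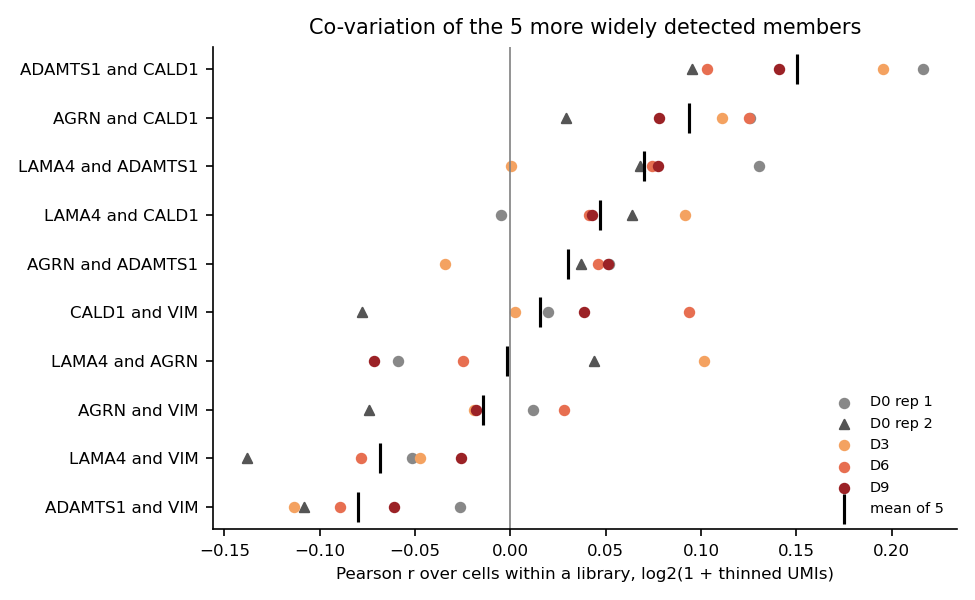
Pearson r over cells within each library (horizontal) for the 10 pairs of the 5 more widely detected genes, 1 point per library and a tick for the mean. In these thinned cells ADAMTS1 and CALD1 were positive in all 5 libraries (mean 0.15), and both LAMA4 and ADAMTS1 were negative with VIM in all 5. Signs of single libraries differed in some alternatives.

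Among 5036 genes compared in the same way, those most like each gene were found. The highest mean r with CALD1 were those of CCN2 (0.19), a secreted matrix-associated protein, ID4 (0.16), an inhibitor of basic helix-loop-helix factors, and LINC00662 (0.16), a long non-coding RNA. The lowest were those of the mitotic genes PTTG1 (-0.17) and CCNB1 (-0.14). ADAMTS1 was most like NPR3 (0.21), the clearance receptor of natriuretic peptides, CCN2 (0.21) and CALD1 (0.15). VIM was most like LGALS1 (0.23), which encodes galectin-1, the glycolytic enzyme gene GAPDH (0.20) and the basal keratin KRT5 (0.20), and least like CITED4 (-0.15) and IGFBP5 (-0.14). AGRN was most like the mitochondrial transcripts MT-ND3 (0.21), MT-CO3 (0.20) and MT-ND1 (0.20). Its r with the mitochondrial share of a cell was 0.23 and with the log2 of its total UMIs before thinning -0.21. For CALD1 those values were 0.01 and -0.09, for VIM -0.12 and 0.10. The genes most like LAMA4 reached only 0.10 (MAP3K20), 0.07 (IGFBP2) and 0.07 (GLI4). For comparison, 1 in 100 genes (the 99th percentile of mean r) exceeded 0.07 with CALD1, 0.07 with ADAMTS1 and 0.12 with VIM.

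Other genes of the matrix and mesenchymal pathways were counted from lists that leave out the 9 genes. These lists, too, were chosen with earlier results of these data known. The share called and the p-values of list genes are thus descriptions and test nothing about the lists. Of 264 listed genes 138 were in the matrix and tested, and 19 were called higher and 29 lower, 34.8% against 23.2% of all genes tested. Their median log2 fold change was -0.09. Without D0 replicate 1 or D0 replicate 2 only 4 or 3 were called higher and 9 or 6 lower, without D3 11 were higher, without D6 7, and without D9 37 were higher and 47 lower. In cells under 10% mitochondrial counts 12 were called higher.

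Collagen genes other than COL1A1 went both ways, with 3 of 9 called higher (COL4A5, COL14A1 and COL18A1) and 3 lower (COL5A2, COL9A2 and COL13A1). COL18A1, a basement membrane collagen, had 19.2 and 17.2 CPM at D0, and D3 had 58.7, D6 46.6 and D9 28.6 CPM (1.15 ± 0.28 on the log2 scale, edgeR adjusted p = 0.0239). Of 18 collagen processing genes 3 were called, all of them lower (LOXL2, P3H2 and P3H4). LOXL2, which cross-links collagen, fell by 1.39 on the log2 scale (SE 0.33, edgeR adjusted p = 0.0234). Of 6 laminin genes beside LAMA4 1 was called, LAMB2, the beta 2 chain, which rose from 13.7 and 14.6 CPM to between 49.96 and 66.1 CPM (1.87 ± 0.18, edgeR adjusted p = 0.00185). LAMB2 kept its call with each library left out in turn, and LAMA4, which encodes another laminin chain, was lower in the same libraries. Of 13 other basement membrane and matrix genes beside AGRN 3 were higher (THBS3, FBLN5 and FBN1) and 3 lower (THBS1, FBLN1 and EFEMP1). FBLN1 and THBS1, the genes of fibulin-1 and thrombospondin-1, fell by 1.44 and 1.39.

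Of the 9 metalloproteinase and inhibitor genes beside MMP14 that were tested, 4 were called, all of them lower: TIMP1, TIMP2, TIMP3 and MMP24. TIMP3, an inhibitor bound to the matrix, fell from 45.4 and 51.5 CPM to 22.2, 25.8 and 17.6 CPM (-1.29 ± 0.18, edgeR adjusted p = 0.0046). TIMP1 and TIMP2, soluble inhibitors of which TIMP2 binds MMP14, fell by 0.98 and 0.57. The protease MMP14 stood higher in libraries in which 3 of its family's inhibitors were lower. The TIMP1 call was lost without D0 replicate 1, D0 replicate 2 or D3, the TIMP2 call also without D6, and the TIMP3 call without D0 replicate 2. Of 7 ADAM and ADAMTS genes beside ADAMTS1 2 were called, both higher: ADAM10 (0.62 ± 0.15, edgeR adjusted p = 0.0264) and ADAMTS4, which also cleaves aggrecan (4.09 and 4.37 CPM at D0, between 9.94 and 13.0 CPM after treatment). Of 6 relatives of FAP 2 were called, both lower: DPP4 and PREP (-0.51 ± 0.15, edgeR adjusted p = 0.0419).

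Matrix receptors were called higher for 6 of 21 genes and lower for 3. ITGA6, a laminin-binding integrin chain, rose by 0.78 ± 0.21 while ITGB4, a partner chain of it, fell by 1.11. ITGA3, another laminin-binding chain, and CD44, the hyaluronan receptor, fell by 0.98 and 0.83. Of 25 actin-binding and contractile genes beside TAGLN and CALD1 2 were higher and 7 lower. ZYX, the gene of the focal adhesion protein zyxin, fell by 1.69 (SE 0.17, edgeR adjusted p = 0.00217) and the tropomyosins TPM2 and TPM3 by 1.58 and 0.91. ACTA2, smooth muscle actin, was called higher but reached 1.35 CPM at most. Of 6 mesenchymal transcription factors and markers beside VIM 2 were called, both lower. They were NT5E, the ectonucleotidase CD73, which fell from 34.0 and 36.7 CPM to 11.5, 7.84 and 5.63 CPM (-2.25 ± 0.25, edgeR adjusted p = 0.00229), and NES, the intermediate filament nestin (-1.40). Of 18 genes of TGF-beta signalling 2 were higher (TGFBR3 and LTBP1) and 2 lower (TGFB1 and CCN2). CCN2, the gene most like CALD1 over cells, fell by 1.01 (SE 0.27, edgeR adjusted p = 0.0321). Calls outside the naming rule were chosen after their values were seen. LAMB2, ZYX, TPM2 and NT5E kept their calls with each library left out in turn, and of the 21 genes named by the rule 16 lost theirs without D0 replicate 1 and 17 without D0 replicate 2.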

How the data were processed

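The submitters' processing notes name Cell Ranger 6.1.2 and GRCh38, and the study's methods GENCODE 32. The authors removed cells under 5000 UMIs, cells with outlying mitochondrial content and putative doublets, adjusted D0 captures with ComBat-seq, and dropped weakly expressed genes. What the authors deposited are expected counts: batch-adjusted UMI counts, whole numbers not scaled for depth. The test had been planned for plain counts. The other deposited columns are cell names and gene identifiers, not measurements. Libraries came from cell-name prefixes, and 1 barcode was shared by D3 and D6.

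Counts were summed per library and fitted with edgeR 4.0.16 in R 4.3.3 (TMM, filterByExpr, quasi-likelihood, 3 residual degrees of freedom), tested on simulated data. DESeq2 1.42.0 was an alternative. Cells were thinned with random seed 1. Positions are from GENCODE 44, which matched 12449 of 12474 identifiers. The 9 genes and the pathway lists were chosen with earlier results of these data known. Up to 4 called genes per list, at a mean of at least 20 CPM (5 where none reached it), and the 3 genes most like each widely detected gene were named. A called gene that the rule names is not reported here.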

Additional observations from a re-analysis of the deposited data

How the results depend on the processing

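Over all genes tested, 1590 were called higher and 1229 lower. With 1 library left out the calls ran from 100 to 3504 higher and from 139 to 3313 lower, lowest without D0 replicate 2 (100 and 139), and 138 and 194 without D0 replicate 1, then 1055 higher without D3 and 799 and 662 without D6, and highest without D9. They were 642 and 721 after thinning and 3257 and 3471 without both D3 and D6, an alternative chosen after seeing the data. Other genes of the pathway lists ran from 3 to 37 called higher and from 6 to 47 lower with 1 library left out. They were 9 and 19 after thinning, 12 higher in cells under 10% mitochondrial counts, and 29 and 80 without both D3 and D6. A fit without 1 D0 library leaves 1 untreated library, which is assumed to vary like the treated ones, and fewer samples. The cause of the other shifts was not tested. Of the calls 56.4% were higher, against 46.2% without mitochondrial and ribosomal protein genes, 51.2% with RLE factors and 49.98% with DESeq2. The log2 fold changes of the 9 genes kept their sign under every alternative run. Shares did not: treated minus untreated mean was 13.7 percentage points for AGRN after thinning and -0.957 without it, and for CALD1 10.3 and -0.419. Mean r of ADAMTS1 and CALD1 was 0.12 with another random seed and 0.21 without thinning. Depth limits COL1A1, MMP14, FAP and TAGLN, with 9 to 220 UMIs per library. No paired analysis was possible because only the D0 libraries carry replicate numbers.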

Other observations

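Outside the naming rule, and chosen after their values were seen, a few matrix genes of low level had large differences. FBN1, the gene of fibrillin-1, had 0.870 CPM in untreated D0 replicate 1, 1.53 CPM in replicate 2, and 6.89, 7.14 and 7.40 CPM on the treated days in order. DDR2, a receptor for fibrillar collagen, stood at 0.261 and 0.213 CPM before treatment and 2.07, 3.51 and 3.85 CPM after it, and its relative DDR1 at 93.6 and 92.0 CPM before and 180, 182 and 149 CPM after. ITGA9, an integrin chain, stood at 0.435 and 0.426 CPM before treatment and 6.54, 5.29 and 3.77 CPM after it. In the other direction, COL5A2, a chain of the fibrillar collagen V, stood at 5.92 and 4.83 CPM before treatment and 0.895, 0.446 and 0.381 CPM after it. COL1A1, the fibrillar collagen gene described above, was higher in CPM at every treated day but was not called. At D3 and D9 its interval overlapped that of D0 replicate 2. With the normalization factors of the fit, COL1A1 at D9 would not lie above D0 replicate 2. MMP24, a membrane-type metalloproteinase like MMP14, stood at 3.57 and 3.62 CPM before treatment and 0.827, 0.319 and 0.296 CPM after it, opposite to MMP14.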
